A study of Xenopus allofraseri with 8 samples.

Results

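The genes described here are 5 Trinity genes that the article's annotation places in membrane traffic or at microtubules: *copz1* (TR40138|c1_g1), *arfgap1* (TR85784|c7_g1), *rab12* (TR20608|c2_g1), *ktn1* (TR6296|c4_g1) and *tubg1* (TR28216|c7_g1). A Trinity gene is the group of assembled transcripts that have the same name before the isoform suffix, and the members are all 33 transcripts of these 5 genes, of 218541 transcripts in 163981 Trinity genes. The genes were chosen by measured values, since each has 1 or 2 transcripts that edgeR's exact test called between the 2 performance groups, and each symbol comes from a BLAST match of the called transcript to *Xenopus laevis* or *Xenopus tropicalis* proteins. The symbol was carried over to the other transcripts of the same Trinity gene.

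The libraries were made from polyA RNA of the right knee extensors of 8 wild-caught *Xenopus allofraseri* males, 1 library per frog, with no treatment. A, D, E and G were the endurant frogs while B, C, F and H were burst-performant (n = 4 each), a grouping that the study made by clustering the frogs on jumping distance, jumping time, burst velocity and burst acceleration. Estimated counts, which are numbers of read pairs that Kallisto shared among the transcripts they matched, summed to between 4449192 (frog H) and 17359253 (frog E) per library. A count of 3, used as the floor for a transcript at 0, corresponded to 0.181 CPM (counts per 1000000, after TMM scaling) in frog E and to 0.838 CPM in frog H. The tables carry no gene names of their own, and markers of muscle or of other cell types were not examined here.

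The products of these genes act on different routes of membrane traffic and on the microtubules along which membranes move. Vesicles that leave the Golgi apparatus towards the endoplasmic reticulum carry the COPI coat, which the small GTPase Arf1 recruits and which is shed once Arf1 hydrolyses its GTP, while Rab GTPases direct vesicles between endosomes, lysosomes and other compartments. Motor proteins carry many of these membranes, and in vertebrate muscle fibres microtubules start largely at the nuclear envelope and at Golgi elements rather than at a single centrosome.

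Isoform usage differed between frogs in all 5 genes, and no gene had the same leading transcript, the one with the largest share of the gene's counts, in all 8 frogs. Isoform here means an assembled transcript of the same Trinity gene. The article describes the species as allotetraploid, and whether such transcripts are splice forms, alleles or duplicated gene copies was not tested. Of the 33 transcripts, 5 had a count in every frog (*copz1* i2 and *ktn1* i4, i8, i10 and i11), 27 had a count in 1 to 7 frogs and 1 (*copz1* i1) in none. No share over all transcripts is given beside these numbers, and nothing is read from them. The number of different leading transcripts over 8 frogs was 3 in *copz1*, 4 in *rab12*, 3 in *arfgap1*, 4 in *ktn1* and 3 in *tubg1*. With TPM, which corrects for length, in place of counts, another transcript led in 4 of the 40 pairs of gene and frog (*copz1* i2 in frog C and i6 in frog D, and *ktn1* i8 in frogs B and H). Such changes of the leading transcript were common in the assembly. Of tested Trinity genes, 71.9% of those with 4 transcripts, 79.6% with 6 and 94.4% with 13 had 2 or more leading transcripts. Among 1971 tested Trinity genes with 4 transcripts, 32.2% had 3 or more leading transcripts, and among 898 with 6 transcripts, 44.3% had 3 or more and 16.8% had 4 or more. Of 89 tested Trinity genes with 13 transcripts, the number in *ktn1*, 42.7% had 4 or more.

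**Figure D1:**
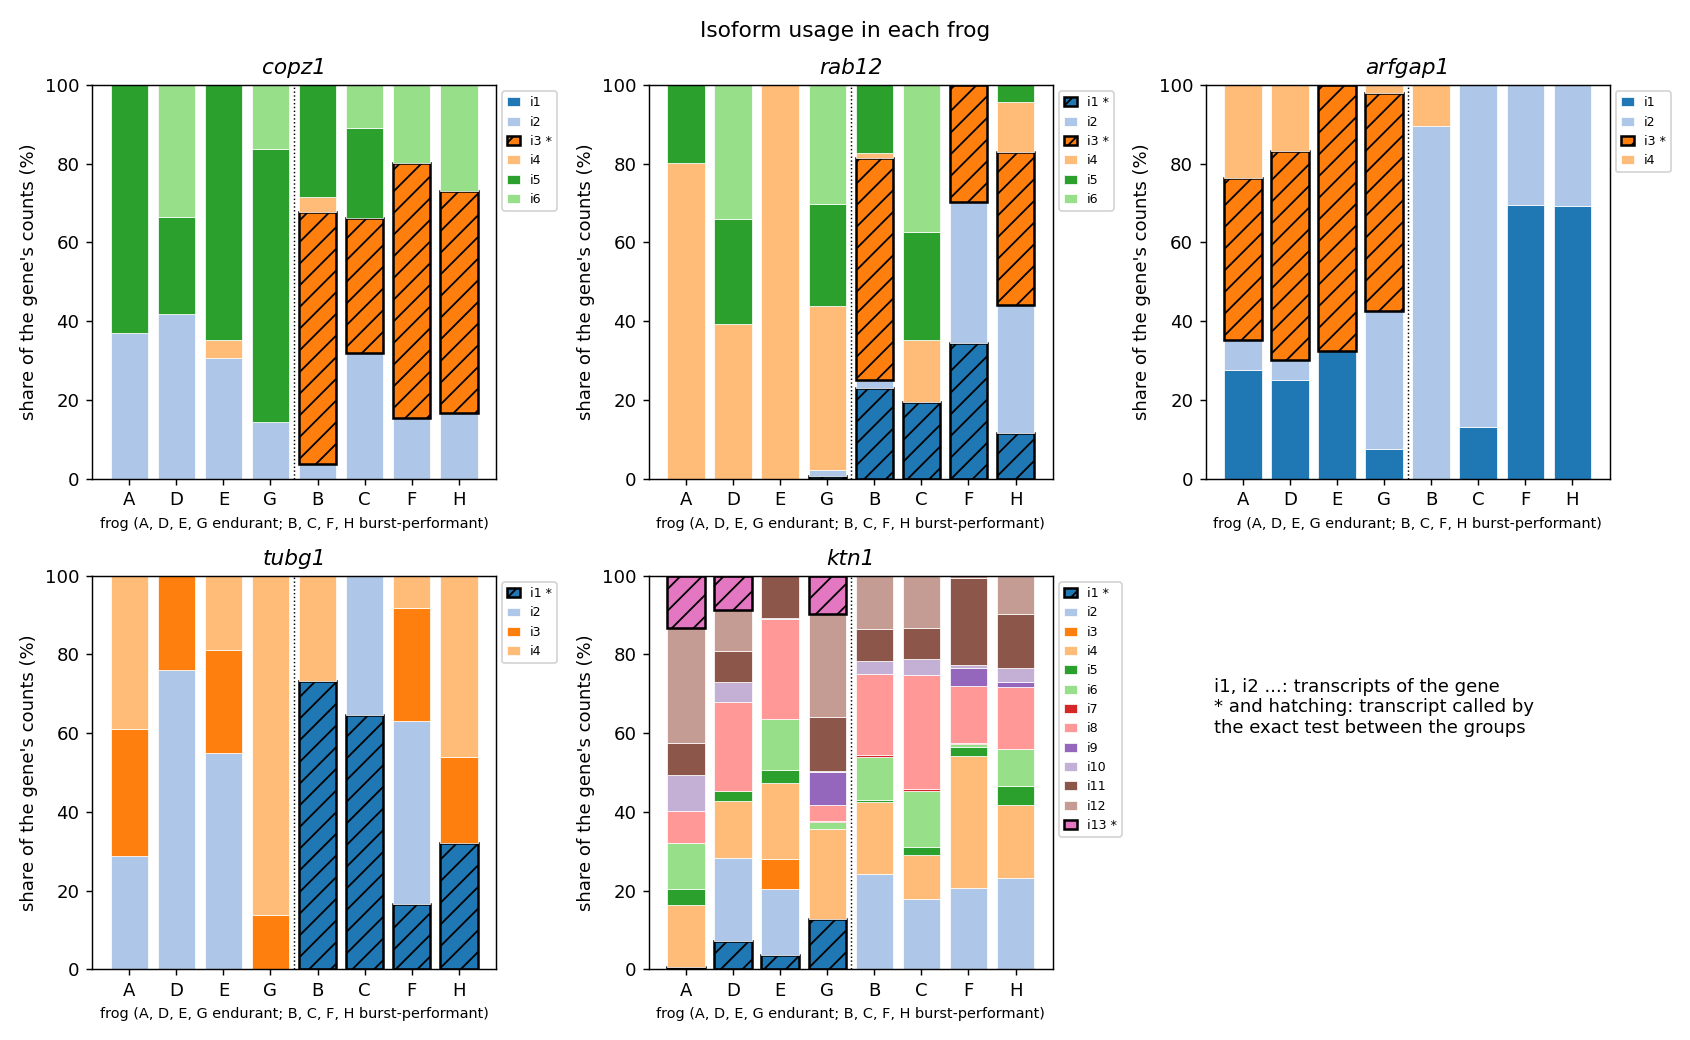
Share of each transcript in its gene's estimated counts (y axis, percent) for each frog (x axis, endurant frogs left of the dotted line), with 1 panel per gene and 1 colour per transcript. Hatched segments marked with an asterisk are the transcripts that the exact test called, which lie on 1 side of the dotted line apart from the shares of 0.8% in frog G (*rab12*) and 0.1% in frog H (*ktn1*).

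The exact test had called 7 of these transcripts at a false discovery rate (FDR) of no more than 0.05 and a change of 2 or more on the log2 scale, of which 3 were higher in endurant and 4 in burst-performant individuals. Over the 55631 transcripts tested, the share called by the same rule was 0.11% for higher in endurant and 0.0863% for higher in burst-performant individuals. Since this contrast chose the genes, nothing is read from the 7, and their values are given as a description. The member just inside the threshold was *rab12* i3, at 0.0369 (adjusted p of the exact test in edgeR), and the nearest outside it were *rab12* i4 with 0.556 and *arfgap1* i2 with 0.605. Of the 33 transcripts, 27 passed the filter of a CPM above 1 in at least 2 frogs (4 of *copz1*, 6 of *rab12*, 3 of *arfgap1*, 11 of *ktn1* and 3 of *tubg1*). For a transcript that passed through the frogs of 1 group alone, this filter favoured a difference between the groups.

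The more conservative quasi-likelihood test of edgeR called 0 of the 27 transcripts, as it called 0% of all 55631 transcripts. DESeq2 called 7 of the 27 and 0.275% of all transcripts, and limma on log2(TPM + 1) called 0 of the 27 and 0.00899% of all. Without a filter on low counts, the quasi-likelihood test called 2 transcripts of these genes (*copz1* i3 and *ktn1* i1) and 0.00615% of 211305 transcripts. An unadjusted p under 0.05 in the quasi-likelihood test was found for 10 of the 27 and for 3.66% of all transcripts tested. The groups did not overlap for 7 of the 27 (5 of the called transcripts, *rab12* i4 and *arfgap1* i2) and for 2.88% of all. Nothing is read from these counts, because 7 of the 10 are the transcripts that chose the genes, and of the other 3 *rab12* i2 and *arfgap1* i2 passed the filter through burst-performant frogs alone. The remaining transcript, *rab12* i4, divides the counts of its gene with called transcripts.

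*copz1* encodes the zeta subunit of the COPI coat. Its transcript i3, of 1191 bases, had estimated counts of 80, 20, 74 and 13 in B, C, F and H and none in A, D, E and G. At the depth of the whole group, this made it at least 63.9-fold higher in burst-performant individuals (187 pooled counts against a floor of 3 counts over the endurant group), or at least 37.7-fold without frog E, whose depth sets much of that floor. In whole muscle, fewer cells of a type and less RNA per cell cannot be told apart. Transcript i3 led the gene by counts in every burst-performant frog, with 54.9 ± 14.2% of the gene's counts (SD, n = 4). By TPM it led in frogs B, F and H, while the shorter i2 led in frog C.

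Transcript i5 of *copz1*, of 1173 bases, had 33, 3, 57 and 46 counts in A, D, E and G and 36, 13, 0 and 0 counts in B, C, F and H, that is 55.4 ± 20.8% of the gene's counts in endurant and 12.8 ± 15% in burst-performant individuals (SD, n = 4). The groups overlapped for i5, since frog D had 3 counts and frogs B and C had 36 and 13. The shorter transcript i2, of 998 bases, was the 1 transcript of the gene with a count in all 8 frogs, at 1.46 ± 0.65 CPM in the endurant against 1.30 ± 0.91 CPM in the burst-performant group (SD, n = 4), and it led by counts in frog D with 5 of 12 counts. Transcript i6, of 708 bases, had counts of 4 and 11 in frogs D and G and of 6, 23 and 6 in frogs C, F and H.

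The depth limits how far an absence of i3 can be read. In frog D the whole gene had 12 counts, so that 0 counts of i3 allow a share of up to 25.0%, while the limit was 3.41% in frog E with 88 counts, 4.55% in frog G and 5.77% in frog A. The shares of i3 in burst-performant frogs had Wilson 95% intervals of 55.3 to 71.9% (frog B), 23.6 to 47.3% (frog C), 55.8 to 73.1% (frog F) and 36.8 to 74.4% (frog H). All limits and intervals cover counting error only, since the read pairs carry no molecular identifiers, and the split between the transcripts of a gene is itself an estimate. Of the 176 member counts above 0, 1 was a whole number (within 0.001), and none of the 28 such counts of the called transcripts was.

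*arfgap1* encodes an activator of GTP hydrolysis by Arf1, the step that releases the COPI coat. Its transcript i3, of 643 bases, had 12, 5, 18 and 11 counts in A, D, E and G and none in B, C, F and H, at least 15-fold higher in endurant individuals (46 pooled counts against a floor of 3 counts over the burst-performant group) and at least 8.98-fold without frog F. It led in all endurant frogs, with 54.3 ± 10.8% of the gene's counts (SD, n = 4). The gene had between 10 and 35 counts in a frog, so that 0 counts of i3 allow a share of up to 8.57% in frog F and up to 21.4% in frog H.

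The other transcripts of *arfgap1* did not share 1 pattern. Transcript i2, of 727 bases, had 2, 1, 0 and 7 counts in A, D, E and G and 29, 16, 11 and 4 in B, C, F and H. In CPM the groups did not overlap for i2, with 0.275 ± 0.266 CPM in the endurant against 1.58 ± 0.79 CPM in the burst-performant group (SD, n = 4). However, i2 passed the filter through burst-performant frogs alone, so that nothing is read from its tests. It led in frogs B and C, while i1, of 596 bases, led in frogs F and H with 25 and 10 counts and had 8, 2, 9 and 2 counts in A, D, E and G. Transcript i4, of 512 bases, had 7 and 2 counts in frogs A and D and 3 in frog B.

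*rab12* encodes a Rab GTPase that in mammalian cells acts between recycling endosomes and lysosomes. All of its 6 transcripts were between 1754 and 1785 bases long. Transcript i1 had 49, 16, 124 and 7 counts in B, C, F and H and 2 in endurant frog G, with 0 in the other endurant frogs, a ratio of pooled counts of 100.5 (95% counting interval 27.4 to 835.5). The ratio was 59.2 without frog E and 61.5 without frog F, and without frog G, which held both counts, i1 was at least 48.8-fold higher. Transcript i3 had 120, 107 and 24 counts in frogs B, F and H but none in C nor in any of A, D, E and G, which makes it at least 85.8-fold higher in the burst-performant group against 3 counts over the other (at least 50.5-fold without frog E). Frog C therefore stood with the endurant frogs for i3 and with the burst-performant frogs for i1.

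Transcript i4 of *rab12*, which was not called, led in all endurant frogs. It had 54, 18, 251 and 99 counts in A, D, E and G and 3, 13, 0 and 8 in B, C, F and H. The groups did not overlap in CPM, with 8.67 ± 4.79 CPM in the endurant against 1.08 ± 1.13 CPM in the burst-performant group (SD, n = 4, edgeR quasi-likelihood log2 fold change 3.12, SE 1.16, unadjusted p = 0.0252, adjusted p = 1.0). Kallisto shared read pairs between the transcripts of a gene, so that i4 is not independent of the called i1 and i3. Nothing is read from this p. In frog E it made up 100% of the 251 counts of the gene.

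The other *rab12* transcripts varied within groups. Transcript i2 had 130 and 20 counts in frogs F and H, 4 in frog B, 3 in frog G and 0 in the remaining frogs. Transcript i6 had 16 and 72 counts in endurant frogs D and G, 31 in burst-performant frog C and 0 in the other 5 frogs, and i5 had 13, 12, 0 and 62 counts in A, D, E and G and 37, 23, 0 and 3 in B, C, F and H. The effective number of transcripts, the exponential of the Shannon entropy of the shares, was 2.21 ± 1.06 in endurant and 3.44 ± 0.52 in burst-performant individuals (SD, n = 4), with a lowest value of 1.0 in frog E and a highest of 3.99 in frog H.

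*ktn1* encodes kinectin, a membrane protein of the endoplasmic reticulum that in mammalian cells binds the motor kinesin. It had the most counts of the 5 genes, from 943 in frog H to 5359 in frog E, and the most transcripts, and its counts were spread over the largest effective number of transcripts, from 5.23 (frog F) to 7.58 (frog D). Transcript i1 had 12, 93, 192 and 237 counts in A, D, E and G and 1 in burst-performant frog H, with 0 in frogs B, C and F, a ratio of pooled counts of 521 (95% counting interval 93.1 to 20609). The ratio was 313 without frog F, and without frog H, which held the 1 count, i1 was at least 158-fold higher. Transcript i13 had 230, 111 and 182 counts in A, D and G but none in E nor in any of B, C, F and H, which makes it at least 170.0-fold higher in the endurant group against 3 counts over the other (at least 102-fold without frog F and 289-fold without frog E). The 2 transcripts together came to 14 ± 7.9% of the gene's counts in endurant individuals (SD, n = 4), with 3.6% in frog E and 22.5% in frog G.

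The main transcripts of *ktn1* were shared by both groups. Transcript i4, of 3240 bases, was at 43.7 ± 13 CPM in the endurant against 41.1 ± 9.05 CPM in the burst-performant group (SD, n = 4), and i11, of 3327 bases, at 24.3 ± 7.68 and 26.3 ± 9.09 CPM. Transcript i8, of 1936 bases, was at 42.3 ± 36.2 and 45.5 ± 23.2 CPM and ranged from 75 counts in frog G to 1357 in frog E. For i8, i4 and i11 the differences between the groups were smaller than the spread between frogs (edgeR quasi-likelihood test, unadjusted p of 0.889, 0.785 and 0.764). Transcript i12, of 3327 bases, ran from 0 counts in frog E and 16 in frog F to 504 in frog A and 485 in frog G, so that both extremes of its range in CPM lay within the endurant group.

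The *ktn1* transcripts include 3 pairs of equal length, and the called transcripts belong to 2 of them. This comparison was chosen after the values were seen and is a description. Both i3 and i13 have 3434 bases, and i3 had 414 counts in frog E, the endurant frog without i13, and 0 in every other frog. Summed, the 2 transcripts had 230, 111, 414 and 182 counts in A, D, E and G, or 23.5 ± 4.80 CPM (SD, n = 4), and 0 counts in all burst-performant frogs. The sum thus had a count in all 4 endurant frogs, where i13 alone had a count in 3.

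The pair of 3367 bases, i1 and i2, behaved differently. Transcript i2 had 656, 333, 465 and 218 counts in B, C, F and H and 267 and 903 in endurant frogs D and E, but 0 in endurant frogs A and G. Summed, i1 and i2 had 12, 360, 1095 and 237 counts in A, D, E and G (42.1 ± 36.6 CPM) and 656, 333, 465 and 219 in B, C, F and H (47.1 ± 13.1 CPM, SD, n = 4), so that the groups overlapped and frog A was the lowest. The pair of 3327 bases, i11 and i12, summed to 58.0 ± 18.7 CPM in the endurant against 48.8 ± 13 CPM in the burst-performant group (SD, n = 4). Of the other genes described here none had transcripts of equal length. Among 16556 tested Trinity genes with several transcripts, 5.78% had such a pair or more, and among the 90 with 13 transcripts 23.3% did. The share with as many pairs as *ktn1* was not counted.

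**Figure D2:**
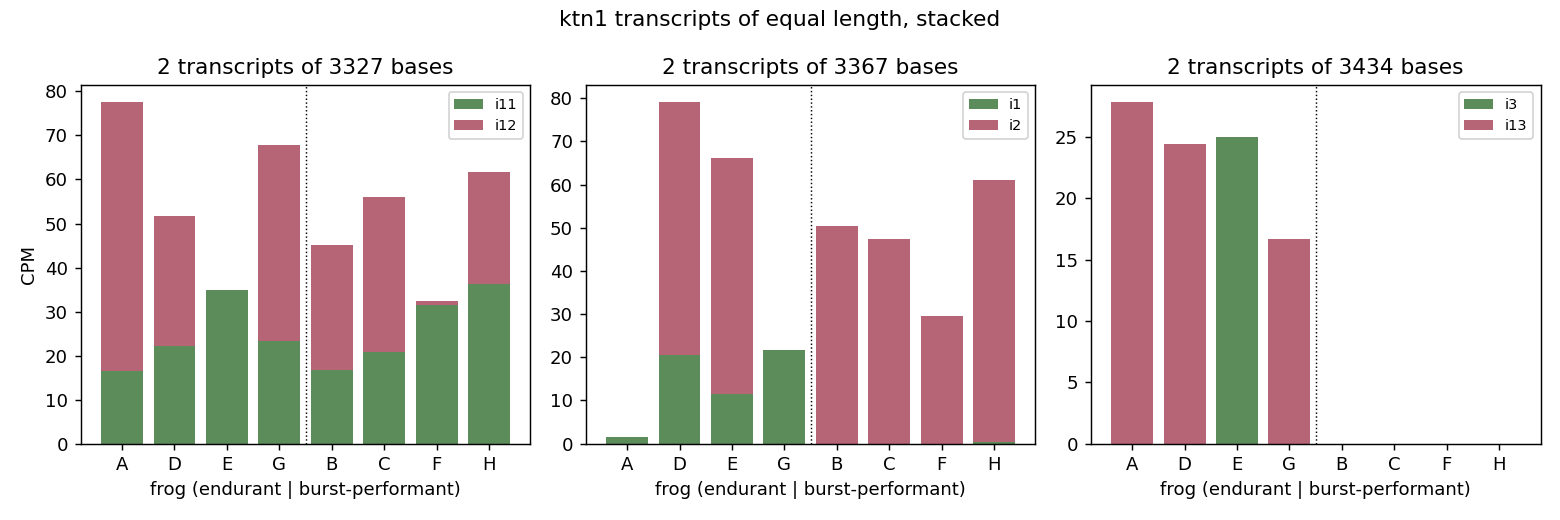
CPM (y axis) of the *ktn1* transcripts of equal length, stacked within each frog (x axis, endurant frogs left of the dotted line), with 1 panel for each length. In the panel of 3434 bases, endurant frogs A, D and G have i13, frog E has i3 and the burst-performant frogs have neither, while the stacks of both other panels overlap between the groups.

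*tubg1* encodes gamma-tubulin, which starts new microtubules at centrosomes and other nucleation sites. Its 4 transcripts were 622 to 689 bases long, and the gene had between 8 (frog D) and 50 (frog B) counts in a frog. Transcript i1 had 37, 11, 7 and 4 counts in B, C, F and H and none in A, D, E and G, at least 20.2-fold higher in burst-performant individuals (59 pooled counts against a floor of 3 counts over the endurant group). The bound was 11.2-fold without frog B and 11.9-fold without frog E. Its share of the gene's counts was 73.3% in frog B and 64.7% in frog C but 16.7% in frog F and 32% in frog H. In frog D, 0 of 8 counts allow a share of up to 37.5%.

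No other *tubg1* transcript kept to 1 group. Transcript i2 led in frogs D, E and F with 6, 20 and 19 counts, and i4 led in frogs A, G and H with 8, 28 and 6 counts. Transcript i3 had 7, 2, 10 and 4 counts in A, D, E and G and 0, 0, 12 and 3 in B, C, F and H. The effective number of transcripts was 2.23 ± 0.72 in endurant and 2.49 ± 0.77 in burst-performant individuals (SD, n = 4).

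The totals of the 5 genes were compared between the groups as well. The called transcripts were chosen for their difference, so that smaller differences of the totals are not read against them. The quasi-likelihood test of edgeR, on counts summed over each Trinity gene, called 0 of the 5, as it called 0% of the 35656 Trinity genes tested. An unadjusted p under 0.05 in this test was found for 0 of the 5 and for 1579 of the 35656. The exact test, DESeq2 and limma also called 0 of the 5, where they called 0.126%, 0.0926% and 0.00561% of all Trinity genes, so that no call among 5 genes is what these shares would give. A total holds the called transcripts and is therefore not independent of how the genes were chosen.

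The total of *copz1* was the 1 total whose groups did not overlap, against 3% of all Trinity genes tested. It was at 6.30, 2.64, 5.31 and 6.03 CPM in A, D, E and G and at 9.62, 8.24, 7.26 and 6.42 CPM in B, C, F and H, that is 5.07 ± 1.67 against 7.89 ± 1.38 CPM (SD, n = 4, edgeR quasi-likelihood log2 fold change -0.64, SE 0.32, unadjusted p = 0.0740, adjusted p = 1.0). Frogs A and H lay next to each other, at 6.30 and 6.42 CPM, and in TPM the groups overlapped for this total, with 2.38 to 5.34 TPM in endurant and 4.40 to 7.08 TPM in burst-performant individuals.

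The log2 fold change of the total, endurant against burst-performant, was -0.32 (SE 0.34) for *rab12*, at 13.8 ± 6.04 against 17.2 ± 4.56 CPM (SD, n = 4). It was -0.29 (SE 0.39) for *arfgap1*, at 2.29 ± 0.85 against 2.83 ± 0.75 CPM, and -0.37 (SE 0.33) for *tubg1*, at 2.35 ± 0.50 against 3.06 ± 0.67 CPM. In TPM the *arfgap1* totals were 3.60 ± 1.73 and 3.61 ± 1.01 (SD, n = 4). For *ktn1* the log2 fold change was 0.15 (SE 0.31), at 245.7 ± 69.1 against 219.8 ± 57.7 CPM. In each of these 4 genes the difference was close to or below its standard error, and the adjusted p of the quasi-likelihood test of edgeR was 1.0.

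**Figure D3:**
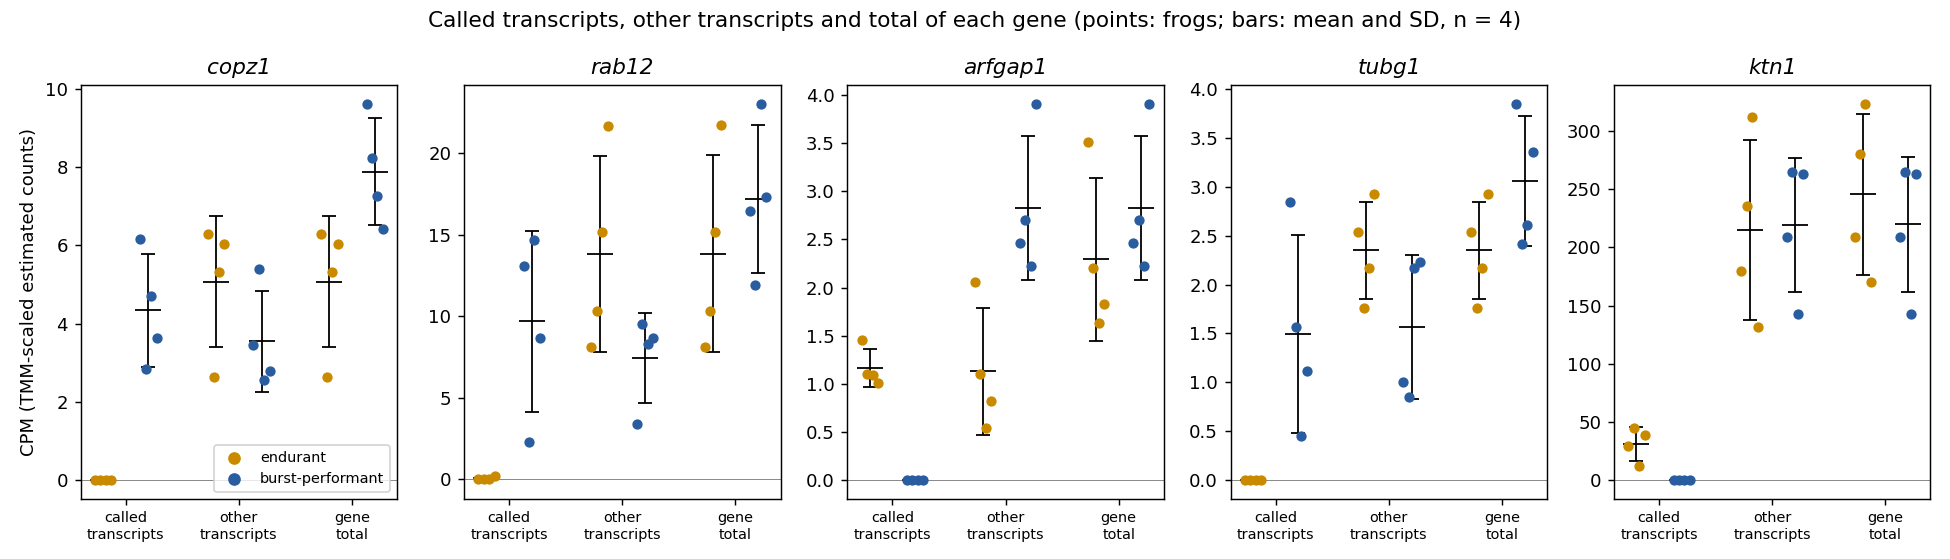
CPM (y axis) of the called transcripts, of all other transcripts and of the total of each gene, with 1 panel per gene and its own scale. Points are frogs, and bars are the mean and SD of 4 frogs. The called transcripts, which were chosen for a difference, separate the groups. The totals overlap in all panels but that of *copz1*, where they run from 2.64 to 6.30 CPM in endurant and from 6.42 to 9.62 CPM in burst-performant individuals.

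What remained of each gene without its called transcripts was compared between the groups with a 2-sided exact permutation test of mean log2(CPM + 1) over the 70 assignments of 8 frogs to 4 and 4, whose smallest p is 0.0286. The remainder holds no counts of the called transcripts, although Kallisto shared read pairs between the transcripts of a gene. It is not independent of how the genes were chosen, since it is the total less the called transcripts. In none of the 5 genes did the difference pass after adjustment over the 5. A single gene at the smallest p of this permutation test has an adjusted p of 0.143, so that 1 gene alone could not pass. In *arfgap1* the remainder was at 2.06, 1.10, 0.543 and 0.823 CPM in A, D, E and G and at 2.46, 2.70, 2.23 and 3.91 CPM in B, C, F and H. The groups did not overlap, with a difference of -0.87 on the log2(CPM + 1) scale (endurant minus burst-performant, exact permutation p = 0.0286, adjusted p = 0.143). Nothing is read from this p. The remainder leaves out i3, found in endurant frogs alone, and holds i2, which passed the filter through burst-performant frogs alone. In TPM the groups overlapped, since frog A was at 3.83 TPM and frogs B and C at 2.90 and 2.65 TPM.

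In the other genes the remainders of the groups overlapped. In *rab12* the remainder was at 8.11, 10.3, 15.2 and 21.7 CPM in A, D, E and G and at 3.39, 9.52, 8.28 and 8.66 CPM in B, C, F and H, a difference of 0.80 on the log2(CPM + 1) scale (exact permutation p = 0.114, adjusted p = 0.286). In *copz1* it was 5.07 ± 1.67 against 3.55 ± 1.29 CPM (difference 0.40, exact permutation p = 0.257, adjusted p = 0.321), and in *tubg1* 2.35 ± 0.50 against 1.56 ± 0.74 CPM (difference 0.42, exact permutation p = 0.171, adjusted p = 0.286, SD, n = 4). Where totals differ little, leaving out a transcript found in 1 group moves the remainder towards the other group, so that the direction of a remainder is not read here. The *ktn1* remainder, at 214.7 ± 77.5 against 219.6 ± 57.6 CPM, did not differ beyond its spread (difference -0.06, exact permutation p = 0.886, adjusted p = 0.886).

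The levels of these Trinity genes were compared per length, in TPM (transcripts per 1000000) of the gene total. Whether the assembled transcripts cover the whole mRNA, and whether other Trinity genes hold further transcripts of the same genes, was not tested. The order below is therefore one of the assembled transcripts alone, which had only 622 to 689 bases in *tubg1* and 512 to 727 in *arfgap1*. Neighbours in the order of mean TPM were compared, so that the same values set the pairs. Over the 8 frogs, *ktn1* was highest at a mean of 56.2 TPM (43.8 to 73.7), followed by *rab12* at 6.41 TPM (3.60 to 11.7), *copz1* at 4.82 TPM (2.38 to 7.08), *tubg1* at 3.73 TPM (2.53 to 4.71) and *arfgap1* at 3.60 TPM (2.17 to 6.09). *ktn1* was above *rab12* in 8 of 8 frogs by 3.02 ± 0.74 on the log2(TPM + 1) scale (SD, n = 8, 2-sided exact sign-flip permutation p = 0.0078, the smallest possible, adjusted over 4 neighbour pairs p = 0.0313). *copz1* was above *tubg1* in 7 of 8 frogs by 0.28 ± 0.25 (exact sign-flip permutation p = 0.0156, adjusted p = 0.0313, n = 8). The neighbours *rab12* and *copz1* did not differ beyond their spread (difference 0.30 ± 0.45, higher in 6 of 8 frogs, exact sign-flip permutation p = 0.0938, adjusted p = 0.125), nor did *tubg1* and *arfgap1* (0.06 ± 0.40, higher in 4 of 8 frogs, exact sign-flip permutation p = 0.672, adjusted p = 0.672).

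**Figure D4:**
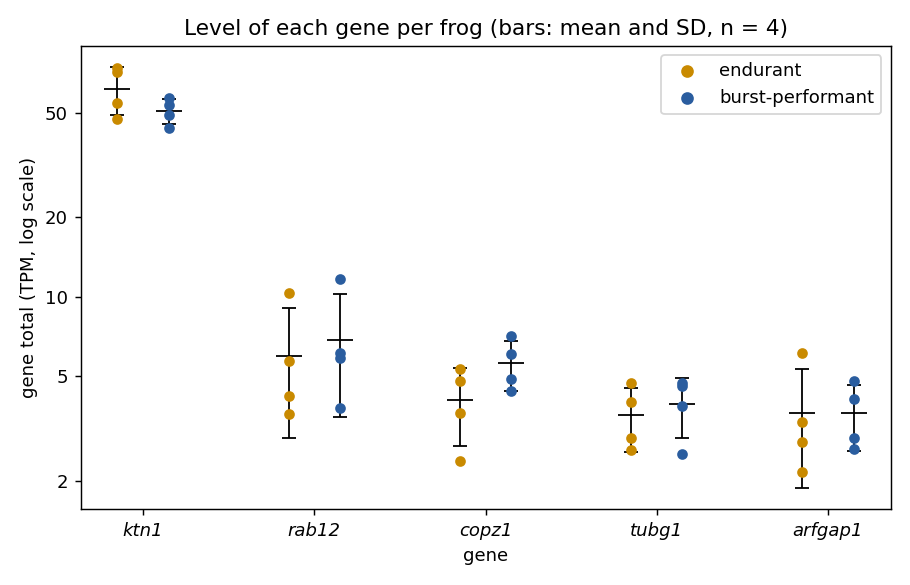
Level of each gene in TPM of the gene total (y axis, log scale) for each frog, with endurant and burst-performant individuals side by side and bars for the mean and SD of 4 frogs. *ktn1* lies between 43.8 and 73.7 TPM in every frog, while the other genes lie between 2.17 and 11.7 TPM and overlap each other.

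The remainders were also set against the burst velocity and burst acceleration that the study measured in each frog. Both traits went into the grouping of the frogs, and each remainder lacks transcripts called between those groups. The relations are therefore not independent of how the genes were chosen. Of the 10 relations (5 genes and 2 traits), none passed after adjustment. The strongest was that of the *arfgap1* remainder with acceleration, with Pearson r = 0.56 (exact permutation p = 0.153, adjusted p = 0.677) and Spearman rho = 0.69 (exact permutation p = 0.0694, adjusted p = 0.694, n = 8). Without frogs A and C, which were farthest from the median acceleration, r was 0.85 over 6 frogs. With velocity, r of the *arfgap1* remainder was 0.47 (exact permutation p = 0.239, n = 8) and rho was 0.48 (exact permutation p = 0.231), and r without frogs C and D was 0.30.

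For the other genes, r with velocity ran from -0.45 (*tubg1*, exact permutation p = 0.271, n = 8) to -0.12 (*copz1*, exact permutation p = 0.763, n = 8), and r with acceleration from -0.48 (*tubg1*, exact permutation p = 0.213, n = 8) to 0.32 (*copz1*, exact permutation p = 0.463, n = 8). Several of these values rested on the frogs at the ends of a trait. Without frogs C and D, r with velocity was -0.69 for *copz1*, -0.56 for *ktn1* (-0.32 over 8 frogs), -0.34 for *tubg1* and -0.29 for *rab12* (-0.25 over 8 frogs). Frog F, which had the same velocity as frog C, was kept. Without frogs A and C, r with acceleration was -0.61 for *copz1*, -0.48 for *ktn1* (0.05 over 8 frogs), -0.54 for *rab12* (-0.23 over 8 frogs) and -0.14 for *tubg1*. Groups of 4 frogs are too small for an r within a group. Jumping distance and jumping time did not overlap between the groups, so that no r over both groups is given for them.

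The totals of *copz1* and *tubg1* varied together most closely among the 5 genes, with r = 0.77 and rho = 0.64 over 8 frogs on the log2(CPM + 1) scale. Compared with the totals of the 95 other Trinity genes that could be joined to the article's list of called transcripts, both were most like the same gene, *f8a1.L* (r = 0.88 and rho = 0.86 for *copz1*, r = 0.81 and rho = 0.64 for *tubg1*, n = 8). The most alike totals were *rps6ka4* for *rab12* (r = 0.72, rho = 0.69), *tspan7* for *arfgap1* (r = 0.67, rho = 0.71) and XELAEV_18022996mg for *ktn1* (r = 0.78, rho = 0.79). These are descriptions over the same 8 libraries, which share depth and scaling, and the compared genes were themselves chosen for a called transcript. Each r also pools both groups. The totals of *copz1* and *f8a1.L* were both higher in burst-performant individuals without overlap, so that their r holds this difference between the groups. Each r of a most alike total is the largest of 95, and how high the largest would be among unrelated genes was not tested.

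Of the other genes of traffic and the centrosome among the 103 entries of that list, *scoc*, *rmc1*, *cep85* and *f8a1.L* are described here, which is not a complete set. All 4 have a called transcript because the list consists of called transcripts. The quasi-likelihood test of edgeR called none of them, as it called 0% of all 55631 transcripts. Its unadjusted p was under 0.05 in 4 of 4 and in 3.66% of all transcripts. Nothing is read from this, since the same contrast made the list. Transcript i5 of *rmc1* (TR23367|c1_g1), whose product belongs to the complex that activates Rab7 on late endosomes, had 20, 14, 31 and 24 counts in A, D, E and G and none in B, C, F and H. Transcript i4 of *scoc* (TR54365|c3_g1), which encodes a coiled-coil protein of the Golgi, had 20, 35, 38 and 5 counts in A, D, E and G and 0 in the others.

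Transcript i1 of *cep85* (TR47339|c2_g1), which encodes a centrosomal protein, had 21, 33, 9 and 32 counts in B, C, F and H and 1 in endurant frog G. For these 3 genes the totals of the groups overlapped, with 15.7 ± 4.13 CPM in the endurant against 15.8 ± 2.92 CPM in the burst-performant group for *rmc1*, 28.6 ± 5.63 and 28.5 ± 4.16 CPM for *scoc* and 44.6 ± 15.1 and 34.4 ± 8.97 CPM for *cep85* (SD, n = 4).

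*f8a1.L* (TR21295|c1_g1) encodes a partner of huntingtin that acts on early endosomes in mammalian cells. Its transcript i3 had 61, 59, 9 and 116 counts in A, D, E and G and 4 in burst-performant frog F, with 0 in frogs B, C and H. The total of the gene went the other way without overlap, at 19.1 ± 4.13 CPM in the endurant against 29.2 ± 7.44 CPM in the burst-performant group (SD, n = 4). Totals of the groups did not overlap for 3% of all Trinity genes tested.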

How the data were processed

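Reads were trimmed with Trimmomatic, pooled and assembled de novo with Trinity by the authors, who quantified each transcript per frog with Kallisto. Versions of these programs: not given in the sources used here. Deposited estimated counts are read pairs that need not be whole, and the deposited TPM values are corrected for length and sum to 1000000 per frog. The assembled sequences were not used here.

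Estimated counts were rounded and compared with edgeR 4.0.16 in R 4.3.3 (TMM, glmQLFit, glmQLFTest, CPM above 1 in at least 2 frogs). Calls needed a Benjamini-Hochberg FDR of no more than 0.05 and a change of 2 or more on the log2 scale, adjusted over all transcripts or Trinity genes tested. The SE of a fold change was taken from the F statistic (log2 fold change over its root). CPM used TMM-scaled library sizes, and pooled folds used pooled counts over pooled scaled library sizes. The article describes edgeR on TPM values, which was run as an alternative. The others were the exact test, DESeq2 1.42.0, limma 3.58.1, other scalings, filters and pseudocounts, and each frog left out. On estimated counts the exact test called 109 transcripts, the number that the article reports, against 4 on TPM values. Scripts were tested on simulated data.

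The transcripts named are those called by the exact test, the one with the most counts and those with a mean share of at least 10%, and the genes of related function come from a list, of which 1 gene is not reported here. *copz1* i1, *arfgap1* i4, *rab12* i2 and *ktn1* i3 and i10 lie outside this rule and were named after their values were seen. Members and lists were chosen with earlier results of these data known. Symbols and performance traits come from the article, and 103 of its 103 listed entries were joined to 1 transcript each by direction, fold change and FDR. The p-values measure the spread between frogs, with 1 library each.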

Additional observations from a re-analysis of the deposited data

How the results depend on the processing

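The quasi-likelihood test called 0 of the member transcripts. It also called 0 with DESeq2's size factors, with a CPM above 1 in 4 frogs and with each frog left out. In each of these it called 0 of all transcripts tested too. Limma with either pseudocount and the exact test on TPM values called 0 member transcripts as well. Over all transcripts, limma called 5 of 55631 with either pseudocount, and the exact test on TPM values called 4 of 160477. With a CPM above 1 in 4 frogs, *rab12* i3, *ktn1* i13 and *tubg1* i1 were filtered out and not tested. The same held for *tubg1* i1 without frog B or C. The number of member transcripts called was 7 with edgeR's exact test and 7 with DESeq2 (0.275% of all transcripts). It was 2 without a filter on low counts (*copz1* i3 and *ktn1* i1), where 0.00615% of 211305 transcripts were called. The gene totals gave 0 calls in all 14 alternatives. Over all Trinity genes, the quasi-likelihood test called 730 of 159077 without a filter and 1 of 35178 without frog C. It called 0 in its other alternatives. The difference of the *ktn1* remainder changed sign, at 0.0882 with log2(TPM + 1), 0.107 with library size only and -0.27 to 0.15 with each frog left out. It was positive without frog C, G or H. Every alternative left out the called i3 of *arfgap1*, so that the direction of its remainder is not read. The *arfgap1* remainder kept its direction in all alternatives, and its unadjusted exact permutation p ran from 0.0286 to 0.0857. That of the *rab12* remainder was 0.0286 without frog A, the smallest possible, and 0.257 without frog B or G. With the median of the paired differences in place of the mean, *ktn1* over *rab12* (3.23) and *copz1* over *tubg1* (0.234) kept their direction. The exact sign-flip permutation p was 0.0625 for both. It is the smallest p the median can give here, since flipping the signs of the smallest differences leaves the median unchanged. A test on the median could therefore not pass at 0.05, and nothing is read from its p. No paired analysis was possible because the labels give the frogs no shared replicate numbers.

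With the gene total in place of the remainder, r with velocity changed sign to 0.74 for *copz1* (n = 8), 0.58 for *rab12*, -0.0147 for *arfgap1* and 0.46 for *tubg1*. The sign of r with acceleration changed too, to -0.0495 for *ktn1* and 0.0135 for *tubg1*. The r of *ktn1* with acceleration was -0.10 with log2(TPM + 1). The totals hold the called transcripts, which chose the genes, and both traits went into the grouping of the frogs. Nothing is therefore read from the r of the totals. With shares of TPM, the mean share of the called transcripts of each gene moved by less than the spread between frogs, while the leading transcript changed in 4 of 40 pairs of gene and frog. At 8 to 50 counts per frog for *arfgap1* and *tubg1*, a transcript at 0 could still hold up to 37.5% of the gene's counts (*tubg1* in frog D).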
